A study of Mus musculus with 10 samples.

Results

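The genes described here are 8 genes of salt transport in the thick ascending limb and the distal convoluted tubule: Slc12a1, Slc12a3, Umod, Kcnj1, Wnk1, Wnk4, Stk39 and Klhl3. They were chosen by gene symbol for their known function, with earlier results of these data known. They are 8 of the 13920 protein-coding genes in the deposited gene table. Their 19 listed transcripts are among the 26686 transcripts of the deposited transcript table. RNA was sequenced from whole left kidneys of C57BL/6 mice, of which 5 had unilateral ureteral obstruction (UUO), a ligation that blocks urine outflow from 1 kidney, labelled Original UUO, and 5 had a sham operation, labelled Sham UUO. The labels give no treatment and name no allele or transgene in UUO or sham kidneys. The labels give no age, sex or time after surgery. They also do not say that each library is a different animal, and p-values therefore measure a spread between samples that may be technical. Values were taken as FPKM, read fragments scaled to transcript length and library size, and without counts the depth behind each value is unknown.

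The thick ascending limb and the distal convoluted tubule reclaim filtered salt without letting water follow, which dilutes the urine. In the thick limb the cotransporter NKCC2 (Slc12a1), the target of loop diuretics, carries sodium, potassium and chloride across the apical membrane, and the channel ROMK (Kcnj1) returns the potassium to the lumen, while the cells secrete uromodulin (Umod), the most abundant protein of normal urine. In the distal convoluted tubule the cotransporter NCC (Slc12a3), the target of thiazide diuretics, is switched on when WNK kinases (Wnk1, Wnk4) activate the kinase SPAK (Stk39), which phosphorylates the cotransporters, and KLHL3 (Klhl3) brings WNK kinases to the ubiquitin ligase scaffold CUL3 for degradation.

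FPKM of 6 of the 8 genes was called lower in UUO kidneys, as a part of the sequenced RNA and not as an amount per kidney. Slc12a1 stood at 24.5% of the sham mean, Klhl3 at 34.1%, Slc12a3 at 34.2%, Kcnj1 at 47.2%, Wnk4 at 54.4% and Wnk1 at 70.5%. Umod (67.2% of the sham mean) and Stk39 (120% of it) did not pass the test. A gene was called when its adjusted p was under 0.05 in limma, fitted to log2(FPKM + 1) of all 13202 genes that reached 0.5 FPKM in at least 5 libraries, and all 8 genes reached it. Of all genes tested, 16.1% were called lower and 58.5% higher in UUO kidneys, against 6 and 0 of these 8. For the 6 called genes each UUO library lay below each sham library, as it did for 12.2% of all genes tested. In whole-kidney RNA, fewer cells of a type and less RNA per cell cannot be told apart.

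**Figure D1:**
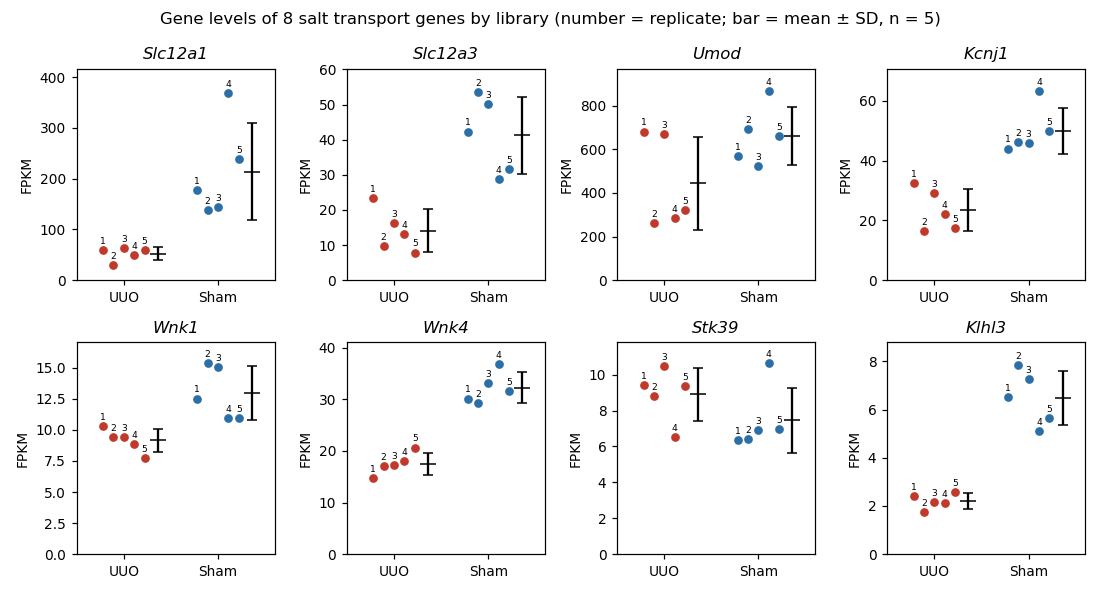
FPKM of the 8 genes in each library, UUO kidneys left and sham kidneys right, with 1 point per library and a line at the mean of each group of 5. The groups are apart for Slc12a1, Slc12a3, Kcnj1, Wnk1, Wnk4 and Klhl3 and overlap for Umod and Stk39.

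The summed gene values were 282172 to 302519 FPKM in UUO libraries and 327994 to 343018 FPKM in sham libraries, and the median gene tested had a log2 difference of 0.40, which median-of-ratios scaling took to 0.00. Relative to that median gene, log2 differences of the 8 genes ran from -2.35 for Slc12a1 to -0.16 for Stk39. With median-of-ratios scaling 34.3% of all genes were called lower and 34.1% higher, and 7 of the 8 were called lower, Umod being the one added. Library Sham 4 stood apart for several tubule genes. The 12 collecting duct markers, of which 9 were called lower, summed to 84.8 to 167 FPKM in UUO libraries. Their sums were 269 to 300 FPKM in the other 4 sham libraries, but 678 FPKM in Sham 4. That sum is led by the markers of highest level. Not every marker of the list was high in Sham 4, where some were the highest of the sham group and others the lowest. Sham 4 also had the highest Slc12a1 and the lowest Slc12a3 of the sham group. Without Sham 4, UUO means were 30.0% of the sham mean for Slc12a1, 31.8% for Slc12a3, 32.4% for Klhl3, 50.6% for Kcnj1, 56.4% for Wnk4 and 67.8% for Wnk1, and these 6 genes were again called lower, while Stk39 was called higher. The 12 proximal tubule markers, which mark the most abundant tubule segment of the kidney, summed to 430.5 to 1995 FPKM in UUO libraries and 3364 to 4568 FPKM in sham libraries. All 12 were called lower, among them Slc27a2, a fatty acid transporter, and none of them was listed at 0 in any library. The sums of 10 immune cell markers were 410 to 879 FPKM in UUO libraries and 18.8 to 29.4 FPKM in sham libraries. Those of 8 fibroblast and myofibroblast markers were 319 to 652 FPKM in UUO libraries and 16.4 to 28.3 FPKM in sham libraries. All 8 tested immune markers and all 8 fibroblast markers were called higher. The 9 tubular injury markers, all called higher, summed to 4745 to 10413 FPKM in UUO libraries and 295 to 493 FPKM in sham libraries. These sums, too, are led by the markers of highest level in each list. What part the cells behind these marker sums had in the values of the 8 genes was not tested.

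Slc12a1 (ENSMUSG00000027202.12, chr2:125152505-125230002, plus strand, GRCm38) was listed as 3 transcripts of 27 exons each, which differ in the exon they use at position 5. These are the mutually exclusive cassette exons of 96 bases that encode part of a transmembrane segment and the next loop of NKCC2. In mouse and rabbit they are known as B, A and F in genomic order, and F is known from the medulla, A from cortex and medulla, and B from the cortex and the macula densa. The 3 exons are shown because 1 of the transcripts that carry them was called and the other 2 were not. They lie at chr2:125165495-125165590 in Slc12a1-202, chr2:125166123-125166218 in Slc12a1-201 and chr2:125166673-125166768 in Slc12a1-203, all on the plus strand of GRCm38. Capitals mark bases that differ from the exon of Slc12a1-203, read from the GRCm38 genome with the GENCODE M21 annotation.
Slc12a1-202: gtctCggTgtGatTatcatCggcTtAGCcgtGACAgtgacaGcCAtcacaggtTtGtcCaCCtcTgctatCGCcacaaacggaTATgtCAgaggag
Slc12a1-201: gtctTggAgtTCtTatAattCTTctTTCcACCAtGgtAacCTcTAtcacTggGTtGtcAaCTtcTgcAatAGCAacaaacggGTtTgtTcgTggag
Slc12a1-203: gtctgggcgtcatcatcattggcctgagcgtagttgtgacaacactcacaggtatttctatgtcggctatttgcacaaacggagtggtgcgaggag
The exon of Slc12a1-202 differs from that of Slc12a1-203 at 30 bases and that of Slc12a1-201 at 40, and Slc12a1-202 and Slc12a1-201 differ from each other at 33.

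Slc12a1 had 60.1, 30.3, 62.6, 48.9 and 59.5 FPKM in UUO libraries 1 to 5, against 177, 139, 144, 369 and 239 FPKM in sham libraries 1 to 5. The highest UUO library thus lay below the lowest sham library. The means were 52.3 ± 13.4 FPKM in UUO kidneys and 213 ± 95.6 FPKM in sham kidneys (SD, n = 5 each), a log2 difference of -1.95 ± 0.28 (SE; limma, adjusted p = 9.81e-05). Without Sham 4 the sham mean was 175 FPKM.

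Of the 3 transcripts, Slc12a1-203 was called lower. It had 58.9, 18.9, 65.8, 48.7 and 62.8 FPKM in UUO libraries 1 to 5, against 211, 160, 168, 445 and 284 FPKM in sham libraries 1 to 5. It averaged 51.0 ± 19.1 FPKM in UUO kidneys and 254 ± 118 FPKM in sham kidneys, 20.1% of the sham mean (log2 difference -2.30 ± 0.38, SE; limma over 21412 transcripts, adjusted p = 0.000738). Without Sham 4, the highest library, the sham mean of Slc12a1-203 was 206 FPKM and the transcript was again called lower (log2 difference -2.07; limma, adjusted p = 0.00144). Slc12a1-201, which carries the middle exon, averaged 6.20 ± 2.47 FPKM in UUO kidneys and 3.92 ± 1.07 FPKM in sham kidneys and was not called (limma, adjusted p = 0.124). Slc12a1-202, which carries the first exon, averaged 5.93 ± 1.97 FPKM in UUO kidneys and 3.89 ± 0.791 FPKM in sham kidneys and was not called either (limma, adjusted p = 0.0961). It was called higher without UUO 3 (log2 difference 0.62; limma, adjusted p = 0.0254) and after rescaling to equal sums (0.59; limma, adjusted p = 0.0468). Added together, a sum chosen after the values were seen, the transcripts with the first and middle exons had 8.45 to 17.4 FPKM in UUO libraries and 5.36 to 10.2 FPKM in sham libraries (exact two-sided permutation test, p = 0.0397). Their means were 12.1 ± 3.71 FPKM in UUO kidneys and 7.81 ± 1.78 FPKM in sham kidneys.

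Slc12a1-203 made up 80.4, 52.0, 88.6, 81.7 and 86.9% of the listed Slc12a1 transcripts in UUO libraries 1 to 5, against 97.5, 94.0, 95.3, 98.4 and 97.2% in sham libraries 1 to 5. The groups did not overlap, and UUO 2 was the furthest from the sham range. The means of 77.9 ± 14.9% in UUO kidneys and 96.5 ± 1.81% in sham kidneys differed by -18.6 percentage points, which did not pass the test over 14003 transcript shares (limma on arcsine square-root shares, adjusted p = 0.108). Without UUO 2 the difference for Slc12a1-203 was -12.1 points (limma, adjusted p = 0.0630). Of the 13 transcript shares tested in the 8 genes, 0 were called by limma and 8 had an unadjusted p under 0.05, as did 15.7% of all 14003 shares. Those 8 belong to Slc12a1, Slc12a3, Kcnj1 and Wnk1 only. Shares within a gene add up to the whole and are not separate observations. Over all shares 0.75% were called, with adjusted p under 0.05 and a difference of at least 10 points. Transcript values are StringTie's estimates, and a share says how reads were assigned between transcripts that have all but 1 inner exon nearly in common.

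**Figure D2:**
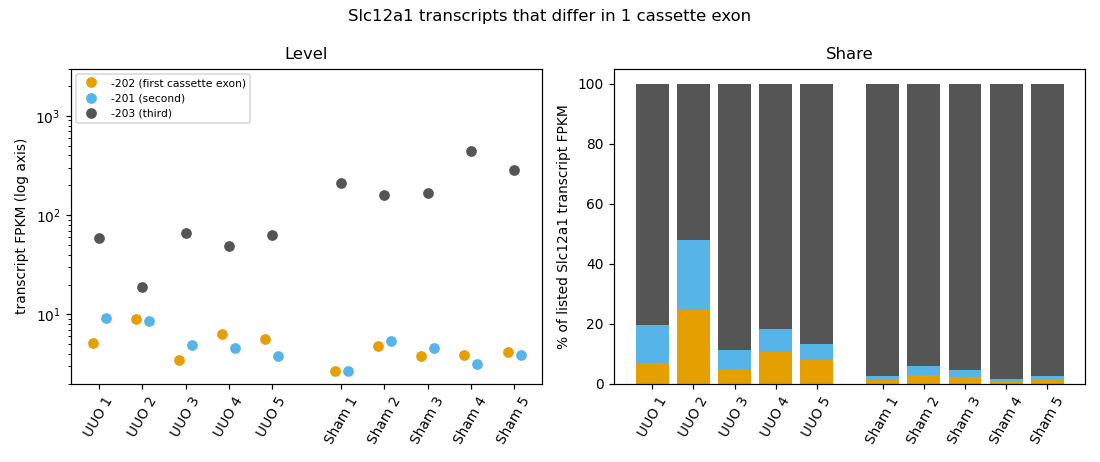
Left, FPKM (log axis) of the 3 listed Slc12a1 transcripts in each library, 1 point per transcript and library. Right, their shares (%) of the summed transcript FPKM as stacked bars, in which Slc12a1-203 holds 52.0 to 88.6% in UUO libraries and 94.0 to 98.4% in sham libraries.

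Kcnj1 (ENSMUSG00000041248.9, chr9:32372493-32399197, plus strand), the channel that recycles potassium for NKCC2, had 32.4, 16.4, 29.2, 22.2 and 17.3 FPKM in UUO libraries 1 to 5, against 44.0, 46.1, 45.9, 63.2 and 49.9 FPKM in sham libraries 1 to 5. All UUO libraries lay below all sham libraries. The means were 23.5 ± 7.12 FPKM in UUO kidneys and 49.8 ± 7.77 FPKM in sham kidneys (log2 difference -1.09 ± 0.19, SE; limma, adjusted p = 0.000324). Both listed transcripts were called lower. The main one, Kcnj1-201, averaged 25.9 ± 8.06 FPKM in UUO kidneys and 53.2 ± 8.33 FPKM in sham kidneys. The minor one, Kcnj1-202, which starts further downstream, averaged 0.289 ± 0.327 FPKM in UUO kidneys and 2.18 ± 0.526 FPKM in sham kidneys, 13.3% of the sham mean (limma, adjusted p = 0.000309), although the share of Kcnj1-201 did not pass (limma, adjusted p = 0.254).

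Umod (ENSMUSG00000030963.6, chr7:119462711-119479282, minus strand) had the highest level per length of the 8 genes in every library. It had 681, 263, 670.5, 285 and 323 FPKM in UUO libraries 1 to 5, against 568, 691, 522, 866 and 659 FPKM in sham libraries 1 to 5. UUO 1 and UUO 3 lay within the sham range and the other 3 UUO libraries below it. The means of 444 ± 212 FPKM in UUO kidneys and 661 ± 133 FPKM in sham kidneys gave a log2 difference of -0.68 ± 0.29 (SE), which missed the threshold (limma, adjusted p = 0.0538; exact two-sided permutation test, p = 0.111). Umod was called lower without UUO 1 (log2 difference -0.87; limma, adjusted p = 0.0157), without UUO 3 (-0.86; limma, adjusted p = 0.0159) and after median-of-ratios scaling (-1.19; adjusted p = 0.00323 in limma). Its main transcript, Umod-201, averaged 462 ± 221 FPKM in UUO kidneys and 681 ± 136 FPKM in sham kidneys and was not called (limma, adjusted p = 0.0963), but was called lower without UUO 1 (limma, adjusted p = 0.0336), without UUO 3 (0.0367) and after median-of-ratios scaling (0.0168). The 3 minor transcripts were called lower with overlapping groups. Of these Umod-204 lost its call without UUO 1 (limma, adjusted p = 0.0556), without Sham 2 (0.0606) and without Sham 4 (0.0595). Among them Umod-206, which has a coding sequence as long as that of Umod-201, averaged 3.62 ± 2.47 FPKM in UUO kidneys and 10.2 ± 3.49 FPKM in sham kidneys (limma, adjusted p = 0.0144).

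Slc12a3 (ENSMUSG00000031766.4, chr8:94329201-94366214, plus strand), the cotransporter of the distal convoluted tubule, had 23.5, 9.69, 16.2, 13.3 and 7.90 FPKM in UUO libraries 1 to 5, against 42.3, 53.5, 50.2, 28.7 and 31.7 FPKM in sham libraries 1 to 5. The groups did not overlap, and UUO 1 came nearest to the sham range. The means were 14.1 ± 6.15 FPKM in UUO kidneys and 41.3 ± 11.0 FPKM in sham kidneys (log2 difference -1.54 ± 0.27, SE; limma, adjusted p = 0.000396). Its full-length transcript Slc12a3-201 averaged 23.0 ± 11.3 FPKM in UUO kidneys and 65.9 ± 19.8 FPKM in sham kidneys and was called lower (limma, adjusted p = 0.00327), although UUO 1 (41.2 FPKM) lay above Sham 4 (38.2 FPKM). Of the other listed transcripts, Slc12a3-202 averaged 4.28 ± 1.74 FPKM in UUO kidneys and 6.25 ± 2.82 FPKM in sham kidneys, and Slc12a3-205 averaged 1.94 ± 1.68 FPKM in UUO kidneys and 5.07 ± 4.33 FPKM in sham kidneys. Neither was called (limma, adjusted p = 0.309 and 0.307).

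A deposited gene value equals the sum of its transcripts' FPKM times length, divided by the joint length of all annotated exons, in 100% of 5594 values where all annotated transcripts are listed (within 0.1%). By that relation, 43.5 ± 3.64% of the Slc12a3 value in UUO kidneys and 47.2 ± 6.28% in sham kidneys lay outside the listed transcripts. The 4 transcripts of Slc12a3 annotated in GENCODE M21 that the table does not list are all of the retained-intron class. As FPKM times length in kilobases, written FPM here, that unlisted part was 67.9 ± 29.0 FPM in UUO kidneys and 213 ± 43.8 FPM in sham kidneys. The listed part was 89.1 ± 40.4 FPM in UUO kidneys and 246 ± 82.3 FPM in sham kidneys. For Slc12a1, Umod, Kcnj1 and Klhl3 the unlisted part was at most 4.36% in any library.

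The promoter of Slc12a3 is shown as the 250 bases before the RefSeq start, as the window of a distal convoluted tubule gene that held the AP-2 motif given here. In RefSeq (GRCm38.p6) all 8 genes had such a window, and the motifs given here were searched on both strands. The Kcnj1 window (chr9:32393735-32393984) lies directly before the start of the minor transcript Kcnj1-202. The start of the main transcript Kcnj1-201, which lies upstream, was not searched. The motif GCCNNNGGC, the palindrome of AP-2 factors such as Tfap2b, was found in the windows of Slc12a3, Wnk1, Wnk4 and Stk39, and in 13.7% of 32851 RefSeq promoter windows of this length. The motif AAGGTCA of estrogen-related receptors was found in none of these 8 windows, and in 4.08% of all windows. In the Slc12a3 window (chr8:94328958-94329207, plus strand) capitals mark the AP-2 palindrome, whose first base lies 73 bases before the start. A match is a match of letters and does not show that a factor binds there.
Slc12a3: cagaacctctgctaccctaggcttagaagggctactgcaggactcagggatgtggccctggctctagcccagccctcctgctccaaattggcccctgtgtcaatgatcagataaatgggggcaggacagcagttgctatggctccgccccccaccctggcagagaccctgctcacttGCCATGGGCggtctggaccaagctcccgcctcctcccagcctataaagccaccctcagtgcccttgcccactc
The AP-2 factor gene Tfap2b averaged 8.52 ± 1.53 FPKM in UUO kidneys and 9.13 ± 2.88 FPKM in sham kidneys. It was not called (limma, adjusted p = 0.753), although median-of-ratios scaling put Tfap2b among the genes called lower (limma, adjusted p = 0.0102).

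Wnk4 (ENSMUSG00000035112.17, chr11:101260567-101277409, plus strand), a kinase of the distal tubule whose mutations cause hypertension with high potassium in humans, had 14.8, 17.1, 17.2, 18.03 and 20.7 FPKM in UUO libraries 1 to 5, against 30.2, 29.4, 33.2, 36.9 and 31.7 FPKM in sham libraries 1 to 5. Spread within each group was small beside the gap between them. The means were 17.6 ± 2.12 FPKM in UUO kidneys and 32.3 ± 2.98 FPKM in sham kidneys (log2 difference -0.84 ± 0.09, SE; limma, adjusted p = 1.33e-05). Its listed transcripts were not called. The full-length Wnk4-201 averaged 8.36 ± 3.31 FPKM in UUO kidneys and 9.86 ± 9.59 FPKM in sham kidneys, with Sham 3 at 26.9 FPKM, and the fragment Wnk4-205 averaged 6.58 ± 5.89 FPKM in UUO kidneys and 8.59 ± 4.18 FPKM in sham kidneys (limma, adjusted p = 0.974 for Wnk4-201 and 0.522 for Wnk4-205). The part of Wnk4 outside the listed transcripts, where 3 annotated transcripts of the nonsense-mediated decay class lie, was 35.4 ± 17.7 FPM in UUO kidneys and 89.3 ± 36.2 FPM in sham kidneys. The listed part was 37.5 ± 11.7 FPM in UUO kidneys and 44.6 ± 37.7 FPM in sham kidneys. Between libraries the unlisted share of Wnk4 ran from 16.1 to 71.9% in UUO libraries and from 19.3 to 84.7% in sham libraries, and both parts thus varied far more between libraries than the gene value.

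Wnk1 (ENSMUSG00000045962.16, chr6:119923969-120038672, minus strand), a kinase expressed in many tissues, had 10.3, 9.46, 9.42, 8.87 and 7.72 FPKM in UUO libraries 1 to 5, against 12.5, 15.4, 15.1, 10.95 and 10.99 FPKM in sham libraries 1 to 5. The groups were apart by a narrow gap, between UUO 1 and Sham 4. The means were 9.16 ± 0.952 FPKM in UUO kidneys and 13.0 ± 2.15 FPKM in sham kidneys (log2 difference -0.45 ± 0.11, SE; limma, adjusted p = 0.00364). The kidney is known for a short Wnk1 form without the kinase domain, made from a promoter inside the gene, and all 3 listed transcripts start upstream of it, so that form is not analysed here.

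The listed Wnk1 value was mostly that of Wnk1-204 and Wnk1-224. Each has 26 exons and the same ends. Exon 11 of Wnk1-204 (chr6:119952685-119952969, minus strand, 285 bases) is absent from Wnk1-224, and exon 19 of Wnk1-224 (chr6:119944701-119944784, minus strand, 84 bases) is absent from Wnk1-204. These exons are shown because they tell the transcripts apart.
Wnk1-204: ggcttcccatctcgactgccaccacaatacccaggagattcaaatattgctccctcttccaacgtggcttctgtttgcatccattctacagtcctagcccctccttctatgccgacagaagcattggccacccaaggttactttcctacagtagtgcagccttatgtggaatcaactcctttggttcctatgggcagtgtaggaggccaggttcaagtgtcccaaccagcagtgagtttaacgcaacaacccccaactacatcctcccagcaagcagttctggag
Wnk1-224: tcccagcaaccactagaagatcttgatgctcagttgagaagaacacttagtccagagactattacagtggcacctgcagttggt
Wnk1-204 had 12.2, 0.00053, 14.4, 2.62 and 1.76 FPKM in UUO libraries 1 to 5, against 20.6, 27.9, 24.9, 20.1 and 19.6 FPKM in sham libraries 1 to 5. It was called lower (log2 difference -2.35 ± 0.67, SE; limma, adjusted p = 0.0156), and not called with a pseudocount of 0.01 (limma, adjusted p = 0.0994). Wnk1-224 had 3.84, 17.6, 2.21, 11.8 and 13.5 FPKM in UUO libraries 1 to 5, against 2.16, 2.69, 3.68, 3.89 and 2.15 FPKM in sham libraries 1 to 5. UUO 2, UUO 4 and UUO 5, the libraries lowest in Wnk1-204, were the highest in Wnk1-224, while UUO 1 and UUO 3 lay within the sham range of Wnk1-224. Wnk1-224 averaged 9.79 ± 6.55 FPKM in UUO kidneys and 2.91 ± 0.826 FPKM in sham kidneys and was not called (log2 difference 1.20 ± 0.46, SE; limma, adjusted p = 0.0588). It was called higher without UUO 1 (log2 difference 1.42; limma, adjusted p = 0.0376), without UUO 3 (1.56; limma, adjusted p = 0.00775) and after rescaling to equal sums (1.31; limma, adjusted p = 0.0429). As shares of the listed Wnk1 transcripts, UUO minus sham, Wnk1-204 differed by -41.5 points and Wnk1-224 by 50.7 points, with overlapping groups. Neither share was called (limma on arcsine square-root shares, adjusted p = 0.296 for Wnk1-204 and 0.186 for Wnk1-224). Here too the values are StringTie's estimates of how reads were assigned between transcripts. Wnk1-202 was above 1 FPKM only in Sham 1 and Sham 3 and its level was not tested. Summed, the 3 listed transcripts had 14.6 to 17.8 FPKM in UUO libraries and 21.8 to 37.1 FPKM in sham libraries (exact two-sided permutation test, p = 0.00794, the smallest that 252 relabellings allow). In the other direction, the part of the gene value outside them, shared by 23 further annotated transcripts, was 75.8 ± 17.4 FPM in UUO kidneys and 47.9 ± 35.3 FPM in sham kidneys, with overlapping ranges.

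**Figure D3:**
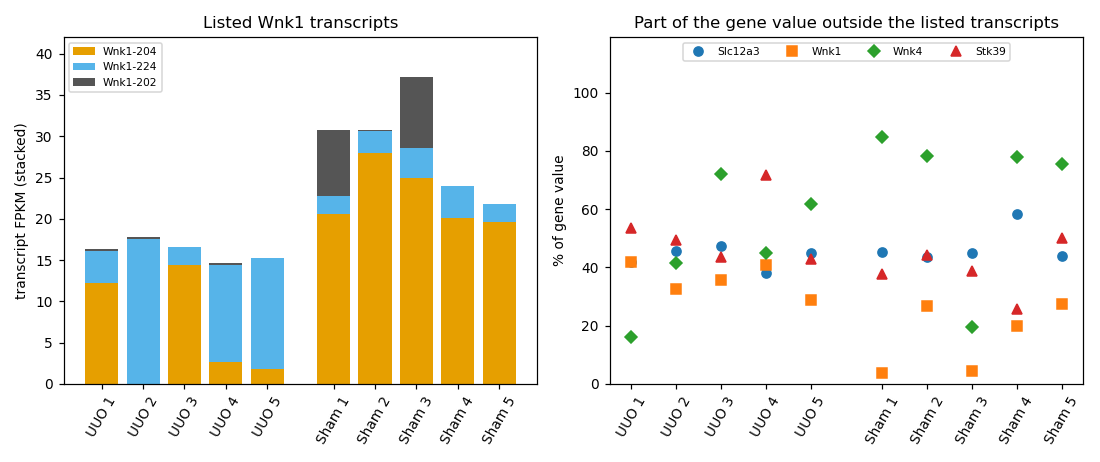
Left, stacked FPKM of the 3 listed Wnk1 transcripts in each library, in which Wnk1-224 makes up most of the bar in UUO 2, UUO 4 and UUO 5 and Wnk1-204 most of it in the sham libraries. Right, the part (%) of each gene value that lies outside the listed transcripts for Slc12a3, Wnk1, Wnk4 and Stk39, 1 point per gene and library.

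Stk39 (ENSMUSG00000027030.15, chr2:68210445-68472268, minus strand), which encodes the kinase SPAK between WNK kinases and the cotransporters, was the gene of the 8 with a higher mean in UUO kidneys. It had 9.41, 8.80, 10.5, 6.52 and 9.37 FPKM in UUO libraries 1 to 5, against 6.35, 6.43, 6.92, 10.7 and 6.95 FPKM in sham libraries 1 to 5. The groups overlapped through UUO 4 and Sham 4. The means of 8.92 ± 1.48 FPKM in UUO kidneys and 7.46 ± 1.81 FPKM in sham kidneys gave a log2 difference of 0.24 ± 0.15 (SE; limma, adjusted p = 0.167). Stk39 was called higher without Sham 4 (sham mean 6.66 FPKM, log2 difference 0.36; limma, adjusted p = 0.0155), without UUO 4 (0.33; limma, adjusted p = 0.0474) and after rescaling to equal sums (0.41; limma, adjusted p = 0.0317). The direction turned to -0.22 with median-of-ratios scaling and -0.17 with quantile normalization, without a call. Its coding transcript Stk39-201 averaged 6.17 ± 2.20 FPKM in UUO kidneys and 6.50 ± 2.61 FPKM in sham kidneys and was not called (limma, adjusted p = 0.847). The part outside it, where 5 processed and 2 retained-intron transcripts are annotated and none is protein-coding, was 19.8 to 24.9 FPM in UUO libraries and 11.8 to 17.2 FPM in sham libraries.

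Klhl3 (ENSMUSG00000014164.15, chr13:58000228-58113592, minus strand), the adaptor that presents WNK kinases for degradation, had the lowest mean level per length of the 8 genes in UUO and in sham kidneys. It had 2.41, 1.76, 2.16, 2.11 and 2.59 FPKM in UUO libraries 1 to 5, against 6.52, 7.83, 7.28, 5.10 and 5.63 FPKM in sham libraries 1 to 5. Every UUO library lay well below every sham library. The means were 2.21 ± 0.315 FPKM in UUO kidneys and 6.47 ± 1.13 FPKM in sham kidneys (log2 difference -1.21 ± 0.12, SE; limma, adjusted p = 4.64e-06). Its listed transcript Klhl3-202 averaged 2.26 ± 0.322 FPKM in UUO kidneys and 6.62 ± 1.16 FPKM in sham kidneys. It makes up nearly all of the gene value and is therefore not a separate result. Cul3, the ubiquitin ligase scaffold that KLHL3 joins, was also called lower, with 21.3 ± 1.33 FPKM in UUO kidneys and 30.4 ± 0.557 FPKM in sham kidneys (limma, adjusted p = 2.34e-05). Over the 19 transcripts of the 8 genes, 18 were tested, of which 9 were called lower, 0 higher and 9 were not called by limma. Of all transcripts tested, 12.2% were called lower and 32.2% higher.

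Ratios of genes within a library do not depend on how libraries are scaled, and 8 were compared by exact two-sided permutation tests adjusted over the 8. The log2 ratio of Slc12a1 to Umod, the pair of thick limb genes, was -3.50, -3.12, -3.42, -2.54 and -2.44 in UUO libraries 1 to 5, against -1.68, -2.32, -1.86, -1.23 and -1.47 in sham libraries 1 to 5. The means of -3.004 ± 0.49 in UUO kidneys and -1.71 ± 0.41 in sham kidneys (SD, n = 5 each) differed by -1.29 (exact permutation p = 0.00794, adjusted p = 0.0317), and every UUO library lay below every sham library. The log2 ratio of Klhl3 to Cul3 was also apart in every library, at -3.28 ± 0.22 in UUO kidneys and -2.25 ± 0.25 in sham kidneys, a difference of -1.03 (exact permutation p = 0.00794, adjusted p = 0.0317). The other 6 did not pass. Kcnj1 to Umod differed by -0.44 and Slc12a3 to Umod by -0.93 (exact permutation tests, adjusted p = 0.0762 for each). The ratio of Kcnj1 to Umod passed without UUO 4 (-0.56; exact permutation test, adjusted p = 0.0212), and that of Slc12a3 to Umod passed without Sham 4 (-1.15; exact permutation test, adjusted p = 0.0423). Kcnj1 to Slc12a1 was higher by 0.85 (exact permutation test, adjusted p = 0.0635) and passed without UUO 5 (1.004; exact permutation test, adjusted p = 0.0212). Slc12a3 to Slc12a1 was higher by 0.36 (exact permutation test, adjusted p = 0.492). Among the kinases, Wnk4 to Wnk1 differed by -0.39, and Stk39 to Oxsr1, its close relative, by -0.31 (exact permutation tests, adjusted p = 0.109 for each). Without UUO 1, UUO 2, UUO 3 or Sham 5 neither of the 2 passing ratios passed (exact permutation tests, adjusted p = 0.0635), with differences of -1.17 to -1.27 for Slc12a1 to Umod and -0.94 to -1.08 for Klhl3 to Cul3. Every UUO library left still lay below every sham library for both ratios. With so few libraries p of the exact test moves in coarse steps, so these lost calls cannot show a weaker difference.

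**Figure D4:**
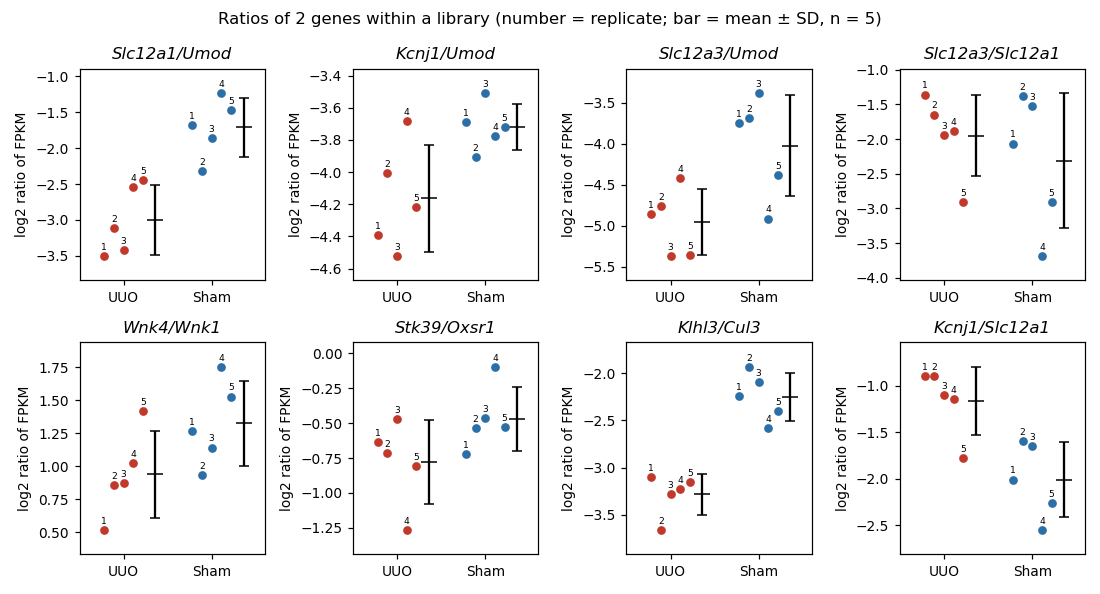
Log2 ratio of FPKM within each library for 8 gene pairs, UUO libraries left and sham libraries right of each pair, 1 point per library with a line at the group mean. Slc12a1/Umod and Klhl3/Cul3 are the pairs whose groups do not overlap.

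Other genes of the same segments, in lists drawn up with earlier results of these data known, were mostly lower. Of 18 tested thick limb genes beside the members, 14 were called lower and 1 higher, with a median log2 difference of -1.23. Over all genes tested 16.1% were called lower and 58.5% higher, with a median of 0.40. Egf, the epidermal growth factor gene, averaged 3.92 ± 2.97 FPKM in UUO kidneys and 101.5 ± 18.2 FPKM in sham kidneys (adjusted p = 1.02e-06 in limma). Ppp1r1a, a protein phosphatase inhibitor whose loss lowers NCC phosphorylation in mice and which is also in the list of regulators, averaged 18.6 ± 8.20 FPKM in UUO kidneys and 108 ± 24.5 FPKM in sham kidneys (limma, adjusted p = 9.81e-06). In the other direction Cldn16, a claudin of the paracellular pathway for magnesium and calcium, averaged 13.1 ± 4.46 FPKM in UUO kidneys and 6.74 ± 0.995 FPKM in sham kidneys (limma, adjusted p = 0.00218), a call lost with median-of-ratios scaling (limma, adjusted p = 0.0957). Cldn14 had 0.240 to 1.27 FPKM in the 5 UUO libraries, was listed at 0 in all 5 sham libraries and was not tested.

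Of 19 tested genes of the distal convoluted tubule, 14 were called lower and 2 higher, with a median log2 difference of -0.84. Over all genes tested 16.1% were called lower and 58.5% higher, with a median of 0.40. Calb1, the calcium-binding protein calbindin, averaged 5.20 ± 3.17 FPKM in UUO kidneys and 75.5 ± 24.9 FPKM in sham kidneys (limma, adjusted p = 2.87e-06). Atp1b1, a subunit of the sodium pump that drives transport in all segments, averaged 481 ± 83.6 FPKM in UUO kidneys and 825 ± 29.7 FPKM in sham kidneys (limma, adjusted p = 0.000162). Trpv5, a calcium entry channel, averaged 8.95 ± 4.23 FPKM in UUO kidneys and 3.60 ± 1.03 FPKM in sham kidneys (limma, adjusted p = 0.00357), a call lost with median-of-ratios scaling (limma, adjusted p = 0.0605). Pvalb, the parvalbumin gene of the early distal convoluted tubule, was listed at 0 in 2 UUO libraries, stood at 0.109 to 11.6 FPKM in the other 3, and stood at 12.6 to 28.0 FPKM in the sham libraries.

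Regulators of the WNK cascade did not share a direction. Of 16 tested, 7 were called higher and 3 lower, with a median log2 difference of 0.12. Over all genes tested 58.5% were called higher and 16.1% lower, with a median of 0.40. With median-of-ratios scaling 1 regulator was called higher and 10 lower, with a median of -0.36. Under that scaling 34.1% of all genes were called higher and 34.3% lower. Lower were Ppp1r1a, Cul3 and Cab39l, a scaffold protein that activates SPAK and its relative OSR1, at 6.79 ± 0.684 FPKM in UUO kidneys and 12.1 ± 4.70 FPKM in sham kidneys (limma, adjusted p = 0.00501). The sham mean of Cab39l without Sham 4 was 10.01 FPKM, and the gene was again called lower (limma, adjusted p = 0.000212). Oxsr1, which encodes OSR1, was called higher at 15.1 ± 0.870 FPKM in UUO kidneys and 10.2 ± 0.830 FPKM in sham kidneys (limma, adjusted p = 4.93e-05), a call lost with median-of-ratios scaling (limma, adjusted p = 0.475). Ppp4c, a protein phosphatase catalytic subunit known to inhibit NCC in frog oocytes, was called higher with 13.8 ± 0.643 FPKM in UUO kidneys and 7.01 ± 1.15 FPKM in sham kidneys (limma, adjusted p = 1.14e-05), and it was the 1 regulator still called higher with median-of-ratios scaling (limma, adjusted p = 0.000942). Sgk1, an aldosterone-induced kinase, averaged 12.0 ± 2.64 FPKM in UUO kidneys and 17.7 ± 18.3 FPKM in sham kidneys, where Sham 4 stood at 50.0 FPKM, and was not called (limma, adjusted p = 0.790).

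In the cotransporter family of Slc12a1 and Slc12a3, 2 of 5 other tested members were called higher and 2 lower. Over all genes tested 58.5% were called higher and 16.1% lower. Slc12a4, the widely expressed potassium-chloride cotransporter KCC1, averaged 11.1 ± 1.39 FPKM in UUO kidneys and 3.03 ± 1.12 FPKM in sham kidneys (limma, adjusted p = 7.79e-06), and Slc12a9, a family member of less settled function, 5.44 ± 0.405 FPKM in UUO kidneys and 3.15 ± 0.245 FPKM in sham kidneys (limma, adjusted p = 1.76e-05). Among those called lower, Slc12a7 (KCC4) averaged 3.50 ± 0.729 FPKM in UUO kidneys and 5.98 ± 0.672 FPKM in sham kidneys (limma, adjusted p = 0.000627). Slc12a2, which encodes the cotransporter NKCC1 of many other epithelia, averaged 12.4 ± 1.78 FPKM in UUO kidneys and 12.9 ± 2.93 FPKM in sham kidneys and was not called (limma, adjusted p = 0.794), but it was called lower with median-of-ratios scaling (limma, adjusted p = 0.00129).

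**Figure D5:**
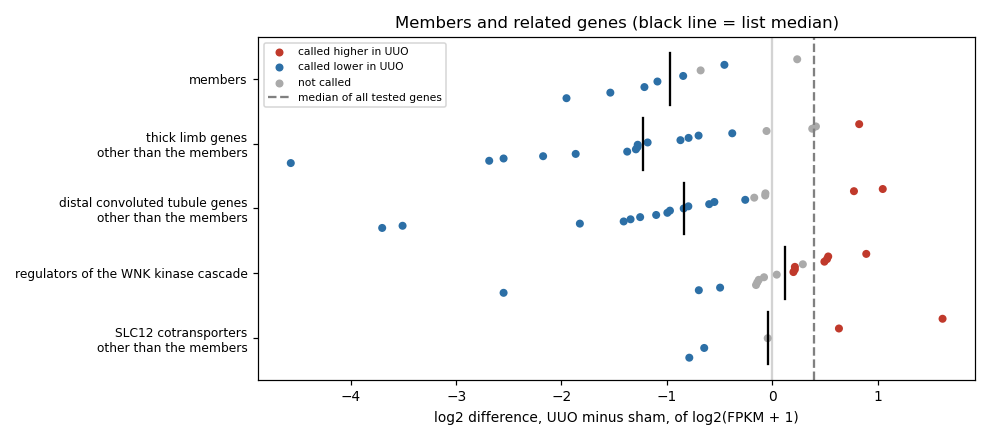
Log2 difference (UUO minus sham) of each tested gene of the 8 genes and of the 4 lists of related genes, 1 point per gene, with a line at each list's median and a dashed line at the median of all genes tested (0.40). Thick limb and distal convoluted tubule genes lie mostly below 0, and WNK regulators and SLC12 cotransporters lie on both sides of it.

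Likeness of profile was measured as the root mean square difference of gene-centred log2(FPKM + 1) over the 10 libraries, among 7331 genes of at least 5 FPKM on average. Among the genes nearest to Slc12a1 were Ppp1r1b (0.23) and Slc16a7 (0.30). Those nearest to Umod were Kng2 (0.20), Sostdc1 (0.26) and Tpd52l1 (0.30). Slc12a3 had no neighbour as near, with Kcnj10 at 0.35, Acss1 at 0.36 and the mitochondrial gene mt-Nd4 at 0.36. Wnk1, whose own spread was small, was nearest to Tefm (0.11), Rnf11 (0.11) and Elovl1 (0.12).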

How the data were processed

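Total RNA of whole left kidneys was sequenced from stranded KAPA libraries on a NovaSeq instrument, per the labels' protocols. The tools named are StringTie, HISAT2 and cutadapt, with build GRCm38, per the submitters' processing notes; no version or annotation release is stated there. The authors deposited gene and transcript values that were taken as FPKM, though the header names no unit. A deposited value of TPM would differ by 1 factor per library, which rescaling to equal sums covers. Library depth is unknown.

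The members and lists were chosen with earlier results of these data known. Columns were matched to samples by the code in the sample titles. Values were tested as log2(FPKM + 1), a scale that understates changes of low genes, where at least 5 libraries reached 0.5 FPKM (13202 genes, 21412 transcripts). The test was limma 3.58.1 in R 4.3.3 (lmFit, eBayes with a trend), Benjamini-Hochberg adjusted over all features and called at 0.05, and it was tested on simulated data. A transcript's share was tested in genes of at least 1 FPKM in every library, for transcripts of at least 5% in either group. Ratios and sums had an exact permutation test over 252 relabellings. Named genes were the members, the genes in ratios, all tested regulators and SLC12 genes, each list's called gene of largest change, highest mean or largest change in the rarer direction, and the 3 nearest profiles of 4 members. Cldn14, Pvalb and Tfap2b were named after their values were seen. Some genes that the rule names are not reported here. GENCODE M21 (GRCm38) held 87.8% of the gene IDs. Alternatives were other pseudocounts, filters, scalings, a replicate block and leaving out each library.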

Additional observations from a re-analysis of the deposited data

Results flagged for a closer look

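In 70 groups of 5 libraries, 1 library stood far from the other 4 in 6 cases, by the gap to its nearest neighbour over the range of the group, and chance gives about 1 in 20. Sham 4 had 10.67 FPKM of Stk39, against 6.35 to 6.95 FPKM in the other sham libraries, and 11.1 FPKM of the transcript Stk39-201. Sham 3 had 26.9 FPKM of the full-length transcript Wnk4-201 and 1.35 FPKM of the fragment Wnk4-205, the highest and the lowest sham value. UUO 3 had 4.84 FPKM of Slc12a3-205, above the other UUO libraries. In UUO 5 the log2 ratio of Kcnj1 to Slc12a1 was -1.78, below the -1.14 to -0.89 of the other UUO libraries, and without that library the ratio passed the test, with a difference of 1.004.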

How the results depend on the processing

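The 6 genes called lower stayed called lower under all alternatives run, and leaving out 1 library gave 6 to 7 lower calls. Genes called higher numbered 0, or 1 after rescaling to equal sums, and 0 to 1 when 1 library was left out, the gene being Stk39. Transcripts called higher numbered 0, or 2 after rescaling to equal sums, and 0 to 2 when 1 library was left out. In the 4 lists of related genes 12 were called higher, against 3 with median-of-ratios scaling and 4 with quantile normalization. Over all genes, calls were 7727 higher and 2130 lower as deposited, 4507 and 4522 with median-of-ratios scaling, 3908 and 4825 with quantile normalization, and 8874 and 1551 at equal sums. Of the ratios 2 passed, and 0 to 3 did when 1 library was left out. As a difference of medians 0 passed, but that setting cannot decide. Many relabellings give the same medians, so no ratio can pass there unless all 8 reach the smallest possible p.

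Some uncalled values changed sign. The log2 difference of Stk39 was -0.22 with median-of-ratios scaling and -0.17 with quantile normalization. That of Wnk4-201, 0.02, became -0.30 and -0.31 under these and ran from -0.21 to 0.44 when 1 library was left out. That of Stk39-201, -0.08, became 0.035 at equal sums and ran from -0.19 to 0.15, and the share of Slc12a3-205 differed by -1.11 to 2.20 points. Replicate numbers gave no pairing: same-numbered libraries had correlations of 0.03, -0.16, -0.11, -0.26 and 0.15. With the number as a replicate block the member genes called lower remained 6, while Umod-202, Umod-204 and Umod-206 missed the threshold (limma, adjusted p = 0.0569, 0.0913 and 0.0519). Regulators called higher fell to 4 under the block, against 7. Unknown depth limits what can be said of transcripts near 1 FPKM. The cause of these changes was not tested.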
